A study of Mus musculus with 24 samples.

Results

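The alarmin cytokine gene Il33, the interleukin-6 (IL-6) family ligands Il6 and Lif, the myokine gene Il15, and the receptor genes Il1rl1, Il1rap, Il6ra, Il6st, Osmr and Lifr were followed in mouse heart across time of day and treadmill running. These 10 genes were chosen by name, by matching Ensembl identifiers to symbols, out of 52350 genes counted in every library. Hearts came from 24 male wild-type C57Bl/6 mice, 12 weeks old, housed in equal periods of light and dark. The mice formed 4 groups of 6: ZT12-EX (run at zeitgeber time 12, when the active phase begins), ZT12-SED (sedentary, same time), ZT0-EX (run at ZT0, when the rest phase begins) and ZT0-SED (sedentary, same time). Exercised mice were habituated to the treadmill and then ran once for 60 min at 10 m/min without incline. The time that passed between running and collection of the hearts is not stated in the sources used here. Within each group, replicates 1 to 3 were sequenced on flow cell 1 and replicates 4 to 6 on flow cell 2. Whole hearts were used, so fewer cells of a type and less RNA per cell cannot be told apart in any value below.

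IL-33 belongs to the IL-1 family, is stored in the nuclei of endothelial cells and fibroblasts, and acts once it is released from damaged or stretched cells. It binds ST2, the product of Il1rl1, which pairs with the accessory chain encoded by Il1rap and signals through MyD88 and IRAK kinases to NF-kB. A soluble form of ST2 acts as a decoy. IL-6 family cytokines share the signalling chain gp130 (Il6st). IL-6 binds first to the chain encoded by Il6ra, LIF signals through gp130 with the LIF receptor (Lifr), and in the mouse oncostatin M signals mainly through gp130 with its own receptor (Osmr), all of them through JAK kinases and STAT3. These cytokines are known in heart for effects on cardiomyocyte survival and growth. IL-15 is made in muscle and signals to lymphocytes through receptor chains shared with IL-2.

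Promoter windows are shown for the 3 genes whose level differed by time of day. RefSeq gave start sites on the GRCm38.p6 build for 9 of the 10 genes. Each window of 300 bases holds 250 bases before a transcript start and the 50 bases that follow, written 5′ to 3′ on the strand of the gene. Il33 has windows at chr19:29924863-29925162 and chr19:29945540-29945839, both on the plus strand. The Lifr window shown is chr15:7129322-7129621 on the plus strand, and the Osmr window is chr15:6874264-6874563 on the minus strand. Lifr also has a window at chr15:7140292-7140591 on the plus strand, which is not shown. Capitals mark the single motif found in the 4 windows shown, TGACCT, which is the nuclear receptor motif AGGTCA read on the other strand.
Il33 upstream start: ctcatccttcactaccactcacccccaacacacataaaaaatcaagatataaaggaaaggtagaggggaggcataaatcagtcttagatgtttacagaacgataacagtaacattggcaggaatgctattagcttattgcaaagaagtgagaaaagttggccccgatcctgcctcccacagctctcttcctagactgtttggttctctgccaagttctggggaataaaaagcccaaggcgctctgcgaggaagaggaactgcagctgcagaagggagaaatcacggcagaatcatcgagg
Il33 downstream start: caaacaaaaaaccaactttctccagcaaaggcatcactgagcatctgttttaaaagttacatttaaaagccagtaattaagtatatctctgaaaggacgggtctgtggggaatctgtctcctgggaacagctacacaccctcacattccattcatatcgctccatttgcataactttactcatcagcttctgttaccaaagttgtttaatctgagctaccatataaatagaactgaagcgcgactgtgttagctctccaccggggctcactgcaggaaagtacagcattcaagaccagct
Lifr: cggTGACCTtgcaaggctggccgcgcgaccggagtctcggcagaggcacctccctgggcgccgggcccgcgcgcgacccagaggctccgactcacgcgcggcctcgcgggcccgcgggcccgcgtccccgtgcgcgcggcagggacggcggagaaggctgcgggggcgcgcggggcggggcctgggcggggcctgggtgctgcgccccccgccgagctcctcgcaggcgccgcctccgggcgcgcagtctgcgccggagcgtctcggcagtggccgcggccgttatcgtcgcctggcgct
Osmr: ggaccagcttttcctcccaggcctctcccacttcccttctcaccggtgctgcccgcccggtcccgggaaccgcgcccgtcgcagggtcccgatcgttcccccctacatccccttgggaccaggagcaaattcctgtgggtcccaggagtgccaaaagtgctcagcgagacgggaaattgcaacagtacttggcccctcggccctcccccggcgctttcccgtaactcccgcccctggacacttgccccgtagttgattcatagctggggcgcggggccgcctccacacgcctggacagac

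A set of 8 motifs was searched on both strands, with NF-kB searched as a single fixed sequence without variable bases. The others were CACGTG (E-box), TTATGTAA (D-box), AGGTCA (nuclear receptor motif), TTCNNNGAA (STAT), TGACTCA (AP-1), TGACGTCA (CRE) and GAANNTTC (heat shock element core). Both Il33 windows, the Osmr window and the Lifr window not shown held none of the 8 motifs. The match in Lifr lies at bases 4 to 9 of the window shown, and this motif was also found in a window of Il1rl1. It occurs in 16.3% of the 32851 promoter windows in the RefSeq table. The E-box, found in the table's windows at a share of 7.15%, was present for Il6ra. The AP-1 motif (5.20% of windows) was present for Il6 and Lif, and the heat shock core (7.86% of windows) for Il6st. The STAT motif (8.30%), CRE (1.79%), D-box (0.938%) and the fixed NF-kB sequence (0.155%) were found in no window of these genes. Each motif was searched only as the letters given, and NF-kB only as its fixed sequence, whose letters are not printed here. Variant forms, such as other NF-kB sites, were not covered. The search therefore does not show that these windows, that of Il6 included, lack NF-kB sites. The windows differed in base composition, with 46.3% and 42.3% G or C for Il33 and 66% for Osmr. For Lifr it was 81.3% in the window shown and 53.3% in the other.

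Library totals ranged from 9697334 to 23067191 counts, and levels are given as CPM, the counts scaled to a common library size with TMM factors. The share of mitochondrial transcripts was 25.5% to 55.1% on flow cell 1 and 2.70% to 23.7% on flow cell 2. Across genes, the deviation of a library from the mean of all libraries correlated negatively with the GC content of transcripts in the ZT12 libraries of flow cell 1 (Spearman correlation -0.82 to -0.58) and positively in every library of flow cell 2 (0.44 to 0.70). The ZT0 libraries of flow cell 1 lay between, from -0.51 to 0.24. Transcripts of fast skeletal muscle were abundant in 6 libraries, all of flow cell 2: every ZT0-EX library there and replicate 6 of each other group. Their markers averaged 5.91 to 7.95 log2 CPM in these libraries, against 1.33 or less in the others. Markers fit the labelled heart tissue, since the 8 cardiomyocyte markers summed to at least 19468 CPM in every library, while 7 lymphocyte markers summed to at most 7.20 CPM.

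Per exon length, Il15 and the shared receptor chain Il6st were the most abundant of the 10 genes, and the ligands Lif and Il6 the least. Il15 averaged 27.2 ± 15.1 CPM per kb of exon over all libraries (SD, n = 24) and Il6st 15.0 ± 4.16. Il33 followed with 6.02 ± 5.13 and Lifr with 4.99 ± 2.38 CPM per kb. Osmr averaged 2.13 ± 1.05 and Il6ra 1.11 ± 0.31 CPM per kb. The IL-33 receptor chains were lower, with 0.517 ± 0.288 CPM per kb for Il1rap and 0.378 ± 0.149 for Il1rl1. Lif averaged 0.110 ± 0.0551 CPM per kb and Il6 0.0597 ± 0.0614. Within the pairs Il15 and Il6st, Il33 and Lifr, Osmr and Il6ra, Il1rap and Il1rl1, and Lif and Il6, the means differed by less than the larger SD. Group means of Il33 and Lifr changed places with time of day, but within every group they differed by less than the larger SD. This order was not tested. Il33 was above Lifr at ZT12, with group means of 10.3 against 6.10 CPM per kb in ZT12-EX and 8.09 against 6.41 in ZT12-SED. It was below Lifr at ZT0, with 2.81 against 4.32 CPM per kb in ZT0-EX and 2.89 against 3.14 in ZT0-SED.

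**Figure D1:**
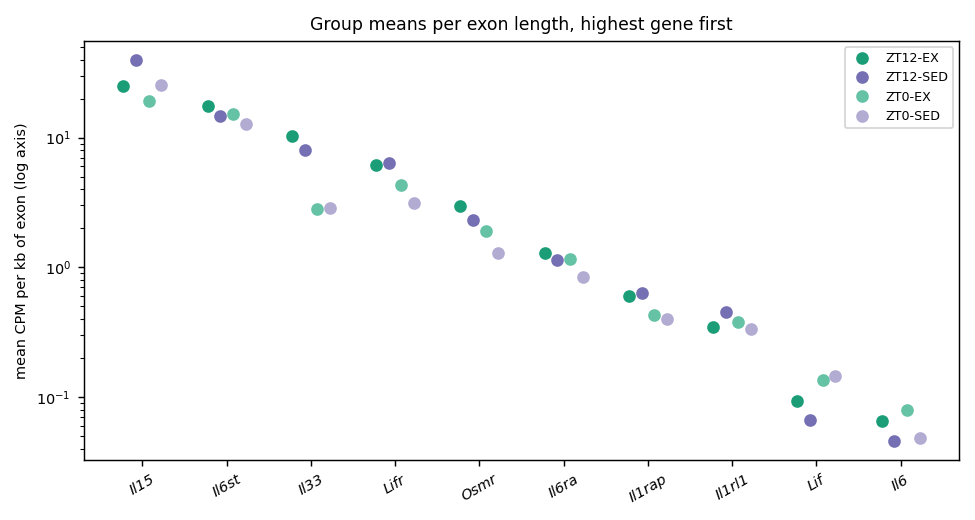
Mean level of each gene in CPM per kb of exon (log axis), 1 point per group of 6 mice, genes ordered by their mean over all libraries. Il15 and Il6st sit highest, Lif and Il6 lowest, and the Il33 points of both ZT12 groups (10.3 and 8.09) stand above both of its ZT0 points (2.81 and 2.89).

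Il33 had the largest time-of-day fold of the 9 genes tested: it was higher at ZT12 than at ZT0, about 2.61-fold in sedentary mice and 3.66-fold in exercised mice. In sedentary mice it ran from 15.8 to 36.2 CPM with a median of 21.2 in ZT12-SED, and from 6.71 to 10.9 CPM with a median of 7.64 in ZT0-SED. Every ZT12-SED library was above every ZT0-SED library. The log2 fold change was 1.38 ± 0.29 (SE, n = 6 mice per group), with an adjusted p of 0.00768 (edgeR's quasi-likelihood test, Benjamini-Hochberg method over the whole table). In exercised mice it ran from 11.3 to 71.4 CPM with a median of 21.9 in ZT12-EX, and from 2.94 to 15.3 CPM with a median of 7.70 in ZT0-EX. These groups overlapped when pooled, but on each flow cell all 3 ZT12-EX libraries were above all 3 ZT0-EX libraries. The log2 fold change was 1.87 ± 0.30 (adjusted p = 0.000675 by the same test). The library with 71.4 CPM was ZT12-EX 1, and without replicate 1 of each group the log2 fold change in exercised mice was 1.73.

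In sedentary mice, 3 of the 9 genes tested rose at ZT12, namely Il33, Lifr and Osmr, and none fell. Over all 15294 genes tested, 5.2% passed in either direction and 2.46% rose. In exercised mice Il33 alone passed, as 1 of 9, against 1.65% of all genes in either direction and 0.811% that rose. Il33, Lifr and Il6ra were higher at ZT12 in sedentary mice without overlap on either flow cell, which 2.39% of all genes tested showed, and Il33 showed this in exercised mice, as did 1.26% of all genes. The median log2 fold change of the 9 genes was 0.51 in sedentary mice and 0.41 in exercised mice, beside -0.01 and 0.02 for all genes tested. At an unadjusted p under 0.05 there were 6 of the 9 genes in sedentary and 2 in exercised mice, and 5040 and 2193 of all genes.

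**Figure D2:**
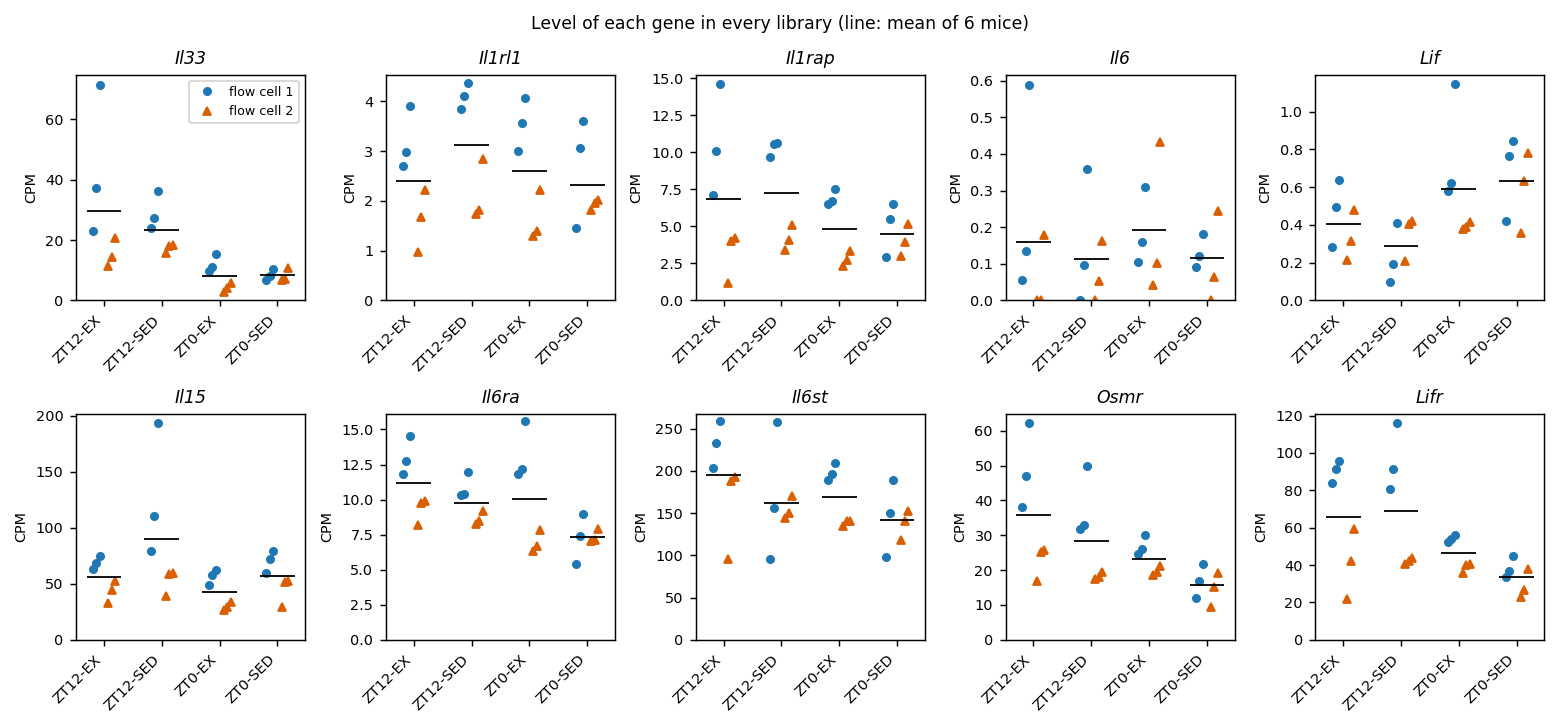
Level of each of the 10 genes in every library, in CPM on a linear axis starting at 0, by group, with flow cell 1 as circles, flow cell 2 as triangles and the mean of 6 mice as a line. The Il33 panel shows all ZT12-SED libraries (15.8 to 36.2 CPM) above all ZT0-SED libraries (6.71 to 10.9), and in most panels circles lie above triangles.

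Lifr, the LIF receptor chain, ran from 40.4 to 116 CPM with a median of 62.1 in ZT12-SED, and from 22.8 to 45 CPM with a median of 35.2 in ZT0-SED. The pooled groups overlapped, while within each flow cell the ZT12-SED libraries were all above the ZT0-SED libraries. Its log2 fold change was 0.92 ± 0.20 (adjusted p = 0.0103). Osmr, the oncostatin M receptor chain, ran from 17.5 to 49.8 CPM with a median of 25.7 in ZT12-SED, and from 9.27 to 21.8 CPM with a median of 16.0 in ZT0-SED. Its groups did not overlap on flow cell 1 and overlapped on flow cell 2, and its log2 fold change was 0.75 ± 0.21 (adjusted p = 0.0433). In exercised mice Lifr ran from 22.1 to 95.6 CPM in ZT12-EX and from 35.9 to 56.2 CPM in ZT0-EX, with a log2 fold change of 0.41 ± 0.20 (adjusted p = 0.356). Osmr there ran from 17.0 to 62.2 CPM in ZT12-EX and from 18.5 to 30.01 CPM in ZT0-EX, with a log2 fold change of 0.55 ± 0.21 (adjusted p = 0.225). Both genes overlapped between the exercised groups, and neither passed.

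The sedentary time-of-day values of these 3 genes were smaller on flow cell 2 alone and with GC content offsets than in the fit used above. Why they were smaller was not tested. Fitted on flow cell 1 alone, the sedentary log2 fold changes were 1.76 for Il33, 1.28 for Lifr and 1.14 for Osmr, with adjusted p of 0.00268, 0.00113 and 0.00504. On flow cell 2 alone they were 1.07, 0.52 and 0.33, with adjusted p of 0.383, 0.999 and 0.999. In exercised mice the Il33 value was 1.87 on flow cell 1 (adjusted p = 0.0202) and 1.93 on flow cell 2 (adjusted p = 0.048). Transcripts of Il33, Lifr and Osmr have 42.5%, 44.4% and 46.0% G or C, below the median of 49.6% for all genes tested. With offsets for GC content in every library, the sedentary log2 fold changes became 1.10 for Il33 (adjusted p = 0.025), 0.65 for Lifr (0.00512) and 0.59 for Osmr (0.0511), and that of Il33 in exercised mice 1.72 (0.000697). The call for Il33 in sedentary mice was also lost with library totals in place of TMM (adjusted p = 0.068), without a flow cell term (0.107) and without replicate 3 of each group (0.0898). In exercised mice it was lost without the 6 libraries with skeletal muscle transcripts (log2 fold change 1.61, adjusted p = 0.0624), a fit with no ZT0-EX library from flow cell 2. Mitochondrial share was also higher in ZT12-SED than in ZT0-SED on flow cell 1, and its part in these differences was not tested.

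**Figure D3:**
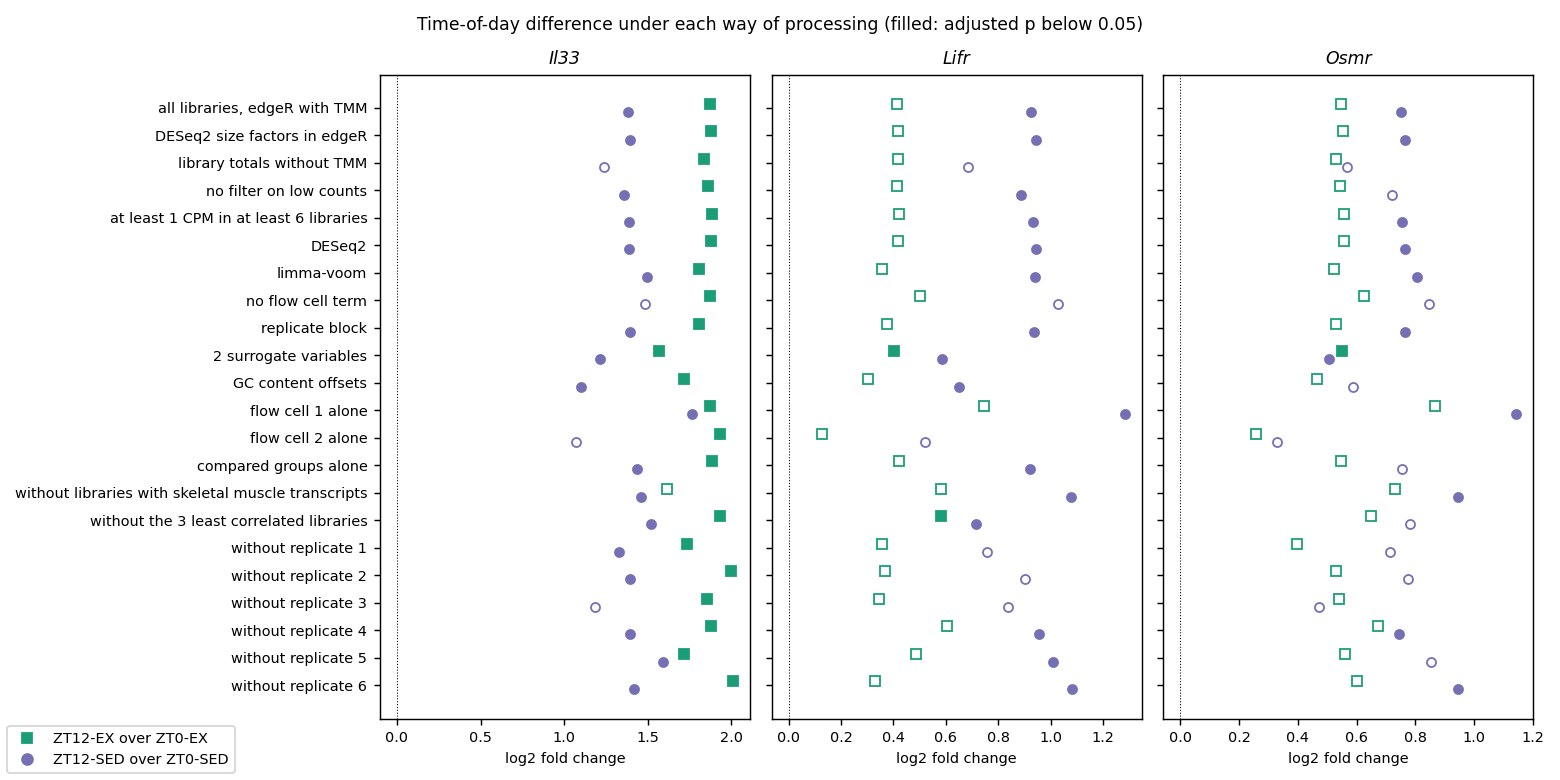
Log2 fold change of Il33, Lifr and Osmr, ZT12-EX over ZT0-EX (squares) and ZT12-SED over ZT0-SED (circles), under the main processing and each alternative, with filled symbols for an adjusted p below 0.05. All values are above 0, the sedentary Il33 value spans 1.07 to 1.76, and the Osmr circles are open for 11 of the 21 alternatives.

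Between the flow cells themselves, the sedentary time-of-day difference was called unequal for 13.1% of all genes tested and for 0 of the 9 genes. Taken as flow cell 2 minus flow cell 1, it was -0.71 ± 0.48 for Il33, -0.79 ± 0.36 for Lifr (unadjusted p = 0.0387, adjusted p = 0.133) and -0.85 ± 0.38 for Osmr (unadjusted p = 0.0355, adjusted p = 0.126) on the log2 scale. In exercised mice the same difference between flow cells was called for 0% of all genes. It was 0.01 ± 0.44 for Il33, with a 95% interval of -0.90 to 0.92.

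Markers of the cell types that make or sense IL-33 did not rise at ZT12 in sedentary mice past the threshold. Of 8 fibroblast markers 1 was lower, of 8 endothelial markers 2 were lower and of 6 smooth muscle and pericyte markers 1 was lower in ZT12-SED than in ZT0-SED, and 0 were higher, beside 5.2% of all genes called in either direction. Fibroblasts and endothelial cells are known sources of IL-33. Fibroblast markers summed to 2264 to 4125 CPM in ZT12-SED and 2259 to 3615 CPM in ZT0-SED, and endothelial markers to 1619 to 2124 CPM in ZT12-SED and 1543 to 2672 CPM in ZT0-SED. None of the 8 cardiomyocyte and 7 macrophage markers passed in either direction. Markers of mast cells and group 2 lymphoid cells, which carry ST2, summed to 10.5 to 34.9 CPM over all libraries, and 1 of the 8, Il13, was at 0 in all of them. They summed to 15.5 to 29.7 CPM in ZT12-SED and 15.1 to 30.6 CPM in ZT0-SED. Only 5 of the 8 were tested, and 0 passed by time of day. Their median log2 fold change was 0.09 in sedentary mice and 0.54 in exercised mice. In exercised mice 1 of 8 fibroblast markers was lower and 0 of 8 endothelial markers passed, beside 1.65% of all genes.

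In the fit to all libraries, the receptor of IL-33 did not move with its ligand past the threshold. Il1rl1, which encodes ST2, ran from 1.74 to 4.37 CPM in ZT12-SED and from 1.45 to 3.61 CPM in ZT0-SED, with a log2 fold change of 0.37 ± 0.23 and a 95% interval of -0.10 to 0.84 (adjusted p = 0.246). In exercised mice it was -0.07 ± 0.22 (adjusted p = 0.921). The accessory chain Il1rap ran from 3.43 to 10.6 CPM in ZT12-SED and from 2.96 to 6.50 CPM in ZT0-SED, with a log2 fold change of 0.51 ± 0.28 and an interval of -0.07 to 1.09 (adjusted p = 0.198). Both genes overlapped between the pooled groups and on flow cell 2, but not on flow cell 1. There Il1rap ran from 9.71 to 10.6 CPM in ZT12-SED and from 2.96 to 6.50 CPM in ZT0-SED. Il1rl1 ran there from 3.84 to 4.37 CPM in ZT12-SED and from 1.45 to 3.61 CPM in ZT0-SED. Fitted on flow cell 1 alone, Il1rap passed with a log2 fold change of 1.01 (adjusted p = 0.0168). Its difference between the flow cells did not pass (adjusted p = 0.165). Il1rl1 rested on 9 to 80 counts per library. The counts do not separate transcripts for membrane ST2 and soluble ST2.

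Among the ligands of the IL-6 family, Il6 was near the limit of detection. It had 64 counts in all 24 libraries together, with 0 counts in 5 libraries and at most 11 in any, and it was left out of testing by the filter on low counts. Its group means were 0.160 ± 0.222 CPM in ZT12-EX, 0.112 ± 0.136 in ZT12-SED, 0.192 ± 0.149 in ZT0-EX and 0.117 ± 0.0865 in ZT0-SED (SD, n = 6 each), which differ by less than any of these SDs. A count of 3 corresponds to 0.130 to 0.575 CPM, depending on the library. Lif, which had 206 counts in all, passed the filter. It ran from 0.0971 to 0.421 CPM with a median of 0.307 in ZT12-SED, and from 0.356 to 0.847 CPM with a median of 0.700 in ZT0-SED. Its log2 fold change in sedentary mice was -0.9996 ± 0.354, opposite in sign to that of Lifr, and did not pass (adjusted p = 0.0762). In exercised mice it was -0.47 ± 0.33 (adjusted p = 0.529). With 1 to 22 counts per library, Lif levels carry large counting error.

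Il15, Il6ra and Il6st had time-of-day values that did not pass. Il15 ran from 39.0 to 193 CPM in ZT12-SED and from 29.0 to 79.2 CPM in ZT0-SED, with a log2 fold change of 0.56 ± 0.20 (adjusted p = 0.0803). Its call depended on the fit, since DESeq2 gave 0.58 with an adjusted p of 0.0432. Il6ra, which binds IL-6 itself, ran from 8.24 to 11.9 CPM in ZT12-SED and from 5.38 to 8.97 CPM in ZT0-SED, with a log2 fold change of 0.40 ± 0.17 (adjusted p = 0.109). Il6st, the gp130 chain, ran from 95.9 to 258 CPM in ZT12-SED and from 98.5 to 189 CPM in ZT0-SED, with 0.20 ± 0.21 (adjusted p = 0.51). Its 95% interval was -0.24 to 0.63. In exercised mice the log2 fold changes were 0.42 for Il15, 0.18 for Il6ra and 0.21 for Il6st, with adjusted p of 0.353, 0.652 and 0.687.

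**Figure D4:**
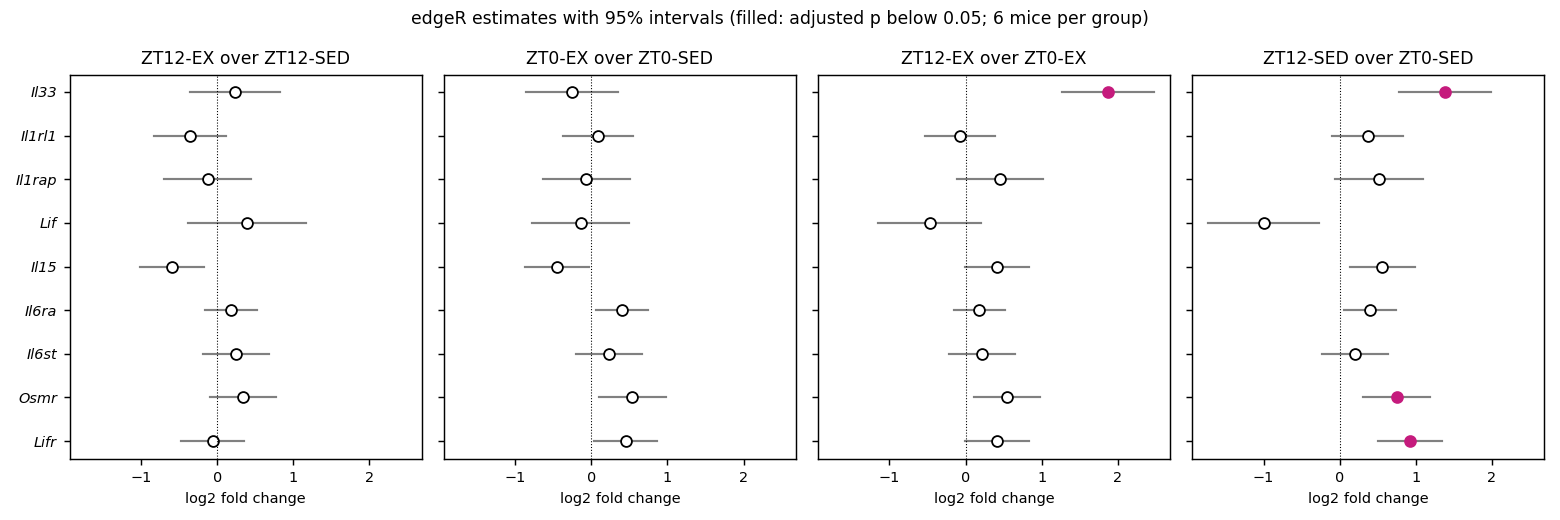
Log2 fold change of the 9 genes tested with 95% intervals, for ZT12-EX over ZT12-SED, ZT0-EX over ZT0-SED, ZT12-EX over ZT0-EX and ZT12-SED over ZT0-SED, 6 mice per group. Filled points passed an adjusted p of 0.05: Il33 in both time-of-day panels, Osmr and Lifr in sedentary mice, and no gene in either exercise panel.

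A single bout of running moved none of these genes past the threshold. At ZT12, 0 of 9 genes passed, beside 0.294% of all genes tested. At ZT0, 0 of 9 passed, beside 1.08% of all genes tested. At an unadjusted p under 0.05 there was 1 of the 9 genes at ZT12 and 4 at ZT0, beside 2504 and 1586 of all genes, and DESeq2 and limma-voom called none either. The median log2 fold change of the 9 genes was 0.18 at ZT12 and 0.08 at ZT0, beside 0.06 and -0.01 for all genes.

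Il15 had the smallest p at ZT12. It ran from 32.9 to 75.2 CPM with a median of 57.8 in ZT12-EX, and from 39.0 to 193 CPM with a median of 69.6 in ZT12-SED, so the groups overlapped. Its log2 fold change was -0.59 ± 0.20 (unadjusted p = 0.00771, adjusted p = 0.214). At ZT0, Il15 ran from 26.5 to 62.6 CPM in ZT0-EX and from 29.0 to 79.2 CPM in ZT0-SED, with a log2 fold change of -0.45 ± 0.20 (adjusted p = 0.455). The highest ZT12-SED values of Il15 were in ZT12-SED 1 (193 CPM) and ZT12-SED 2 (110 CPM). These libraries had 53.4% and 55.1% mitochondrial transcripts and were among the 3 libraries least correlated with the rest. Leaving out a replicate number gave log2 fold changes of -0.68 to -0.36 at ZT12 and -0.56 to -0.33 at ZT0.

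The receptor chains Osmr, Il6ra and Lifr had positive estimates at ZT0 that did not pass. Osmr ran from 18.5 to 30.01 CPM with a median of 22.9 in ZT0-EX, and from 9.27 to 21.8 CPM with a median of 16.0 in ZT0-SED, with a log2 fold change of 0.54 ± 0.21 (adjusted p = 0.367). Lifr had a median of 46.5 CPM in ZT0-EX and 35.2 CPM in ZT0-SED, with 0.45 ± 0.20 (adjusted p = 0.452). Il6ra had a median of 9.81 CPM in ZT0-EX and 7.27 CPM in ZT0-SED, with 0.40 ± 0.16 (adjusted p = 0.403). All 3 overlapped between the groups. At ZT12 the estimates were 0.34 ± 0.21 for Osmr, -0.06 ± 0.20 for Lifr and 0.18 ± 0.16 for Il6ra, and their adjusted p were 0.397, 0.892 and 0.554.

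Il33 itself was not distinguishable between exercised and sedentary mice at either time. The log2 fold change was 0.23 ± 0.29 at ZT12, with a 95% interval of -0.36 to 0.82 (adjusted p = 0.669). It was -0.26 ± 0.30 at ZT0, with an interval of -0.86 to 0.35 (adjusted p = 0.729). Means at ZT12 were 29.7 ± 22.4 CPM in ZT12-EX and 23.3 ± 7.62 CPM in ZT12-SED, and at ZT0 8.11 ± 4.73 CPM in ZT0-EX and 8.34 ± 1.85 CPM in ZT0-SED (SD, n = 6 each). Il1rl1 and Il1rap were at -0.36 ± 0.23 and -0.13 ± 0.28 at ZT12, and at 0.08 ± 0.22 and -0.07 ± 0.28 at ZT0.

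At ZT0 the estimates of Il33 and Il6ra with running differed in sign between the flow cells, but neither difference passed. These 2 genes are given because their unadjusted p for it was under 0.05. Taken as flow cell 2 minus flow cell 1, the exercise effect at ZT0 was above 0 for 0 of the 9 genes. Il33 was 12.0 ± 2.94 CPM in ZT0-EX and 8.42 ± 1.86 CPM in ZT0-SED on flow cell 1, and 4.22 ± 1.37 CPM in ZT0-EX and 8.26 ± 2.25 CPM in ZT0-SED on flow cell 2 (SD, n = 3 each). On flow cell 1 Il33 ran from 9.73 to 15.3 CPM in ZT0-EX and from 6.71 to 10.4 CPM in ZT0-SED. On flow cell 2 it ran from 2.94 to 5.67 CPM in ZT0-EX and from 6.79 to 10.9 CPM in ZT0-SED. The difference between the flow cells in the exercise effect was -1.48 ± 0.49 on the log2 scale (unadjusted p = 0.00653, adjusted p = 1). Il6ra was 13.2 ± 2.09 CPM in ZT0-EX and 7.24 ± 1.80 CPM in ZT0-SED on flow cell 1, and 6.94 ± 0.785 CPM in ZT0-EX and 7.36 ± 0.471 CPM in ZT0-SED on flow cell 2. On flow cell 1 it ran from 11.8 to 15.6 CPM in ZT0-EX and from 5.38 to 8.97 CPM in ZT0-SED. Its difference was -0.95 ± 0.27 (unadjusted p = 0.00173, adjusted p = 1). Of all genes tested 0% passed for this difference, and 338 had an unadjusted p under 0.05. All 3 ZT0-EX libraries of flow cell 2 held skeletal muscle transcripts, whose part in the flow cell difference was not tested. Without the 6 libraries that held them, the ZT0 log2 fold change of Il33 was 0.19 (adjusted p = 0.903), from flow cell 1 alone on the ZT0-EX side. At ZT12, differences between flow cells in the exercise effect passed for 0 of the 9 genes and 0% of all genes.

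The effect of running was not shown to depend on time of day for any of these genes. This interaction is also the difference between the time-of-day effects of exercised and sedentary mice. None of the 9 genes passed, and 0% of all genes tested passed, with 0 of the 9 and 1226 of all genes at an unadjusted p under 0.05. Estimates ran from -0.51 ± 0.29 for Lifr (adjusted p = 0.571) to 0.53 ± 0.48 for Lif (adjusted p = 0.653), on the log2 scale. For Il33 it was 0.49 ± 0.41 with a 95% interval of -0.35 to 1.33 (adjusted p = 0.627). Lifr and Osmr passed by time of day in sedentary mice and not in exercised mice, but the difference between these effects did not pass. The difference of this interaction between flow cells also passed for 0 of the 9 genes and 0% of all genes.

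Beyond the 10 genes, 69 further genes in 8 lists around these pathways were examined, of which 59 passed the filter. The ligand genes Il11, Osm, Cntf, Il27, Il31, Il1a and Il1rn and the receptor genes Il31ra, Il1r2 and Il18rap were the 10 left out by it. With running, 4 of 59 genes passed at ZT0, all of them higher, while 0 of 59 passed at ZT12 or for the interaction. Of all genes tested, 1.08% passed at ZT0, 0.294% at ZT12 and 0% for the interaction. In sedentary mice 3 were higher and 3 lower at ZT12, leaving 53 that did not pass, beside 5.2% of all genes called in either direction. In exercised mice 1 was lower, beside 1.65% of all genes. The median log2 fold change over the 59 genes was 0.14 with running at ZT12, 0.14 at ZT0, -0.06 for time of day in exercised mice and -0.07 in sedentary mice.

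Among 15 genes induced through STAT3, 2 rose with running at ZT0, beside 1.08% of all genes tested called in either direction. Both encode C/EBP transcription factors of the acute phase response. Cebpb averaged 20.0 ± 11.4 CPM in ZT0-EX and 6.55 ± 2.61 CPM in ZT0-SED (SD, n = 6 each), with a log2 fold change of 1.52 ± 0.38 (adjusted p = 0.0488). Cebpd averaged 19.3 ± 13.8 CPM in ZT0-EX and 7.68 ± 5.92 CPM in ZT0-SED, with 1.41 ± 0.29 (adjusted p = 0.0105). Both genes were also higher at ZT12 in sedentary mice, where Cebpb averaged 26.7 ± 17.3 CPM and Cebpd 21.3 ± 15.9 CPM in ZT12-SED. Their log2 fold changes there were 2.13 ± 0.39 (adjusted p = 0.00181) and 1.52 ± 0.29 (adjusted p = 0.00295). The ZT0 and sedentary comparisons share the ZT0-SED libraries. By time of day in sedentary mice, 2 of the 15 genes were higher and 2 lower, beside 5.2% of all genes called in either direction. Other genes of the list ran the opposite way with time of day: Tnfrsf12a, the TWEAK receptor, averaged 11.3 ± 5.84 CPM in ZT12-SED and 30.2 ± 7.22 CPM in ZT0-SED (-1.53 ± 0.26, adjusted p = 0.000978). It also fell in exercised mice (-1.05 ± 0.26, adjusted p = 0.0325), as 1 of the 15 genes, beside 1.65% of all genes. Bcl3, a nuclear regulator of NF-kB, fell in sedentary mice by 1.40 on the log2 scale (SE 0.33, adjusted p = 0.0176). Socs3, the feedback inhibitor of gp130 signalling, was at 0.04 ± 0.22 with running at ZT0 and -0.39 ± 0.22 with time of day in sedentary mice, and did not pass.

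Among 15 genes of signalling below the IL-33 receptor, Nfkbia and Irak2 rose with running at ZT0 and none fell. Of all genes tested, 1.08% were called there in either direction. Nfkbia, the NF-kB inhibitor that NF-kB itself induces, averaged 55.9 ± 7.45 CPM in ZT0-EX and 25.6 ± 6.19 CPM in ZT0-SED (SD, n = 6 each), with a log2 fold change of 1.15 ± 0.22 (adjusted p = 0.00659). Irak2, a kinase of the MyD88 complex, averaged 11.5 ± 2.05 CPM in ZT0-EX and 6.57 ± 0.441 CPM in ZT0-SED, with 0.80 ± 0.18 (adjusted p = 0.0208). With time of day in sedentary mice Nfkbia rose by 0.81 ± 0.22 (adjusted p = 0.0375), and Myd88, the adaptor, averaged 9.35 ± 2.60 CPM in ZT12-SED and 14.2 ± 1.35 CPM in ZT0-SED (-0.61 ± 0.16, adjusted p = 0.027). By time of day in sedentary mice, 1 of the 15 genes was thus higher and 1 lower, beside 5.2% of all genes called in either direction. These factors also respond to other receptors than those of IL-33. No gene passed in any comparison among 4 other ligands of the IL-6 family, 3 other receptors, 11 JAK-STAT components, 5 other genes of the IL-1 family, 4 IL-15 receptor components or the 2 shedding proteases.

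These pathway calls varied with the fit. Of 21 alternatives, the ZT0 exercise call was kept for Nfkbia in 15, Cebpd in 14, Irak2 in 11 and Cebpb in 8, and for none of the 4 on a flow cell alone. The sedentary time-of-day call was kept for Cebpb in 20, Tnfrsf12a in 20, Cebpd in 19, Bcl3 in 14, Myd88 in 11 and Nfkbia in 10, and that of Tnfrsf12a in exercised mice in 12. Fast skeletal muscle markers, abundant in all ZT0-EX libraries of flow cell 2, had a median log2 fold change of 1.95 with running at ZT0, and 0 of 9 passed. Leaving out the 6 libraries that held these transcripts left no ZT0-EX library from flow cell 2. In that fit the calls of Cebpb (log2 fold change 0.89, adjusted p = 0.705), Cebpd (1.45, adjusted p = 0.221) and Irak2 (0.71, adjusted p = 0.294) were lost, while Nfkbia passed (1.35, adjusted p = 0.0219). With all libraries the values were 1.52 for Cebpb, 1.41 for Cebpd, 0.80 for Irak2 and 1.15 for Nfkbia. The part of skeletal muscle transcripts in the lost calls was not tested. With GC content offsets, the call of Cebpb at ZT0 was lost (1.59, adjusted p = 0.218). In the sedentary time-of-day comparison these offsets gave Cebpb 3.60 (adjusted p = 0.00193), Cebpd 1.72 (adjusted p = 0.00197), Nfkbia 1.13 (adjusted p = 0.00149) and Tnfrsf12a -0.94 (adjusted p = 0.00175). Bcl3 at -0.86 (adjusted p = 0.111) and Myd88 at -0.29 (adjusted p = 0.139) lost their calls.

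**Figure D5:**
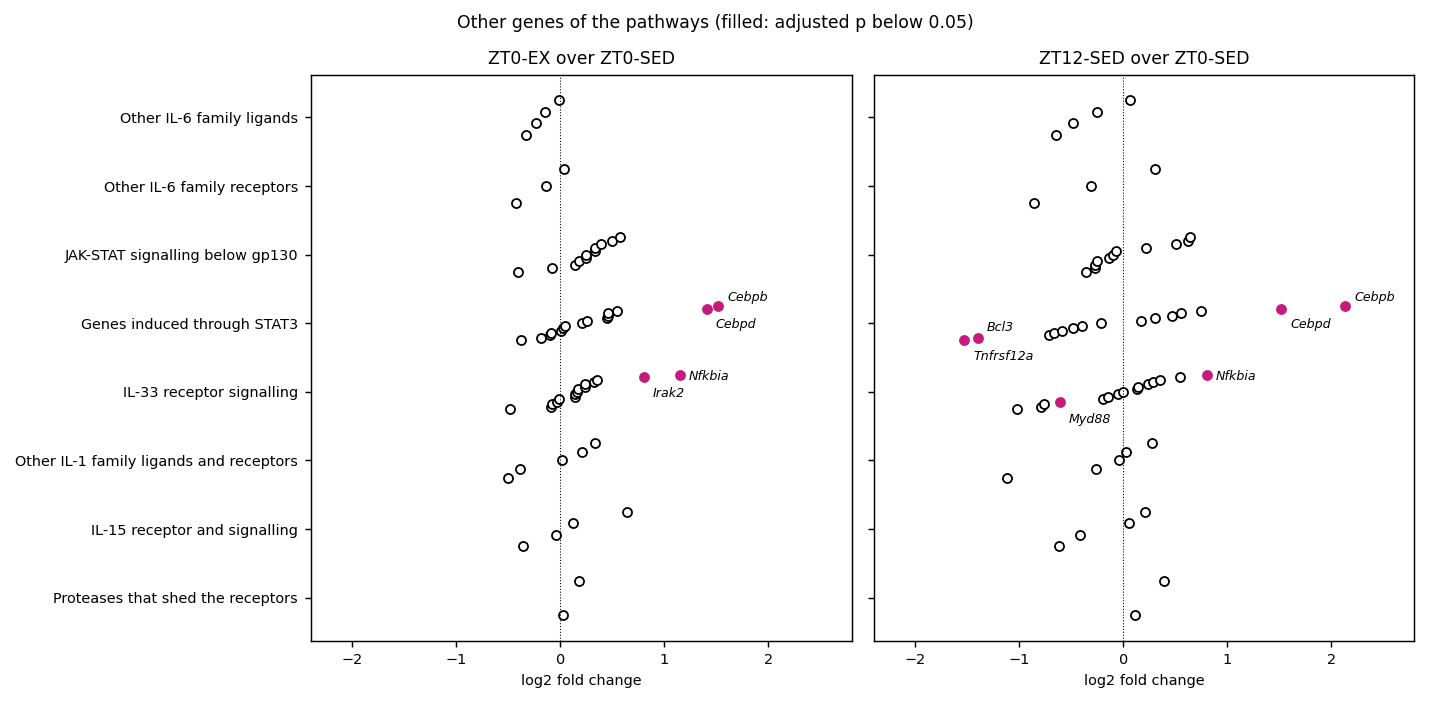
Log2 fold change of the 59 further pathway genes tested, by list, for ZT0-EX over ZT0-SED and ZT12-SED over ZT0-SED, with filled points for an adjusted p below 0.05. The filled points are Cebpb, Cebpd, Nfkbia and Irak2 on the left, and Cebpb, Cebpd, Nfkbia, Bcl3, Tnfrsf12a and Myd88 on the right.

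Among the 9 genes tested, levels of Osmr and Lifr followed each other most closely over the 24 libraries (Pearson correlation of log2 CPM 0.82 after subtracting flow cell means), followed by Il1rl1 and Il1rap (0.77). Lif and Il15 were the most opposed (-0.58). Among 11343 genes compared in the same way, those most like Il33 were Glt8d2 (0.94), Fmo2 (0.92) and Slco1a4 (0.91). Those most like Lifr were Sf3b1 (0.95), Pan3 (0.95) and Trp53inp1 (0.94), and those most like Osmr were Acer2 (0.93), Ptgs2 (0.91) and Scarb2 (0.91). These correlations describe 24 libraries that share depth and GC content differences. Differences between the groups were not subtracted, so a shared time-of-day difference also enters them. The transcripts of the 9 genes named have 38.8% to 48.0% G or C, all below the median of 49.6%.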

How the data were processed

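Poly-A RNA of 24 mouse hearts was sequenced, 6 mice per group, and the labels call them biological replicates. The deposited files hold whole-number read counts for 52350 Ensembl genes per library, not normalized. The authors used Trimmomatic 0.39, HISAT2 2.2.1, the GRCm39 build and featureCounts 2.0.1 of Subread, per the submitters' processing notes. The sources used here do not name the annotation or say how strand and multi-mapped reads were handled, so reads of overlapping or antisense genes cannot be told apart. Ensembl identifiers were given symbols from GENCODE (GRCm38). Identifiers without a symbol (257) held 0.0013% of counts. Exon lengths and transcript GC content came from the same annotation, and promoter sequences from RefSeq (GRCm38.p6).

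The genes, lists, naming rule and alternatives were chosen with earlier results of these data known. All 10 genes are named. From each list, genes past the threshold were named, at most 3 in each direction by smallest p, and Socs3 was added after its values were seen. The 3 genes most like Il33, Lifr and Osmr were taken from genes whose mean log2 CPM reached 1.

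The main test was that of edgeR 4.0.16 (R 4.3.3), with filterByExpr (15294 genes kept), TMM scaling, and a quasi-likelihood F test with group and flow cell as terms, fitted to all 24 libraries with 19 residual degrees of freedom. P-values were adjusted by Benjamini-Hochberg over all genes tested, with 0.05 as threshold, and each adjusted p in the text comes from this test unless another is named. A second fit with a mean for each group on each flow cell gave the differences between flow cells. CPM were computed with TMM-scaled library sizes, and log2 CPM with a prior count of 2. Library totals ranged from 9697334 to 23067191 counts, and 3 counts equal 0.130 to 0.575 CPM. No library looked deposited more than once, since chi-square over its degrees of freedom was at least 13.3 in all 60 pairs within groups. Alternatives were DESeq2 size factors, library totals, no filter, a filter of 1 CPM in 6 or more libraries, limma-voom (limma 3.58.1), DESeq2 1.42.0, no flow cell term, the replicate number as a block, 2 surrogate variables (sva 3.50.0), GC content offsets (loess, span 0.5), the compared groups alone, either flow cell alone, and leaving out 6 libraries with skeletal muscle transcripts, the 3 libraries least correlated with the rest (ZT12-SED 1, ZT12-SED 2 and ZT12-EX 4) or each replicate number.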

Additional observations from a re-analysis of the deposited data

Results flagged for a closer look

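In 2 of 40 sets of 1 gene in 1 group, a library stood apart from the other 5 by Dixon's test at the 95% level. Il6 was at 0.587 CPM in ZT12-EX 1, while the next library of that group was at 0.179 CPM and the lowest at 0. The gap was 0.695 of the group's range and rested on 11 counts. Lif was at 1.14 CPM in ZT0-EX 3, while the next was at 0.621 CPM and the lowest at 0.378 CPM. That gap was 0.683 of the range and rested on 22 counts. Chance alone gives about 1 such library in 20 groups.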

How the results depend on the processing

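Over 803 alternatives to 39 values of the 9 genes tested, 734 kept direction and side of the threshold, 22 lost a call, 10 gained one and 37 turned a sign, none of them with a call on either side. For the interaction, these values cover Il33, Lif and Lifr alone. No gene passed with running or for the interaction under any alternative run. The count of 3 genes called by time of day in sedentary mice became 0 with library totals, without a flow cell term and on flow cell 2 alone, 5 on flow cell 1 alone, and 0 to 4 when a replicate number was left out. The lone call in exercised mice (Il33) became 3 with 2 surrogate variables (with Lifr and Osmr), 2 without the 3 least correlated libraries (with Lifr) and 0 without the 6 libraries with skeletal muscle transcripts. The count for the flow cell difference of time of day in sedentary mice was 0 to 2 when a replicate number was left out. The Osmr call in sedentary mice was lost in 11 of 21 alternatives, that of Lifr in 6 and that of Il33 in 4. The cause of these changes was not tested, beyond fewer samples where libraries were left out.

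Signs that turned were all of log2 fold changes without a call. With running at ZT0 on flow cell 1 alone, Il33 was 0.51, Il1rap 0.46 and Lif 0.20. On flow cell 2 alone, Il1rl1 was -0.27, Il6ra -0.12 and Il6st -0.014. Without the skeletal muscle libraries, Il33 was 0.19, Il1rap 0.12 and Lif 0.22. Il33 was 0.037 with surrogate variables, and Il1rap 0.079 with limma-voom and 0.10 without a flow cell term. Leaving out a replicate number gave -0.48 to 0.084 for Il33, -0.15 to 0.23 for Il1rl1, -0.25 to 0.18 for Il1rap and -0.33 to 0.038 for Lif. With running at ZT12, Il33 was -0.14 on flow cell 2 alone and -0.081 to 0.35 when a replicate number was left out. Il1rap was 0.10 with library totals, 0.13 with surrogate variables, 0.079 with GC content offsets, 0.077 on flow cell 1 alone, 0.11 without the least correlated libraries and -0.28 to 0.083 without a replicate number. Lifr was 0.20, 0.14 and 0.10 with library totals, surrogate variables and GC content offsets, 0.32 without the least correlated libraries and -0.16 to 0.035 without a replicate number. With time of day, Il6st in sedentary mice was -0.057 to 0.30 without a replicate number. In exercised mice Il1rl1 was 0.059 on flow cell 2 alone, 0.012 without the least correlated libraries and -0.17 to 0.017 without a replicate number, and Il6ra was -0.013 on flow cell 1 alone and -0.11 without the skeletal muscle libraries.

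With the replicate number as a block, 3 genes passed by time of day in sedentary mice, 1 in exercised mice and 0 in the other comparisons. Deviations from the means of each group and flow cell correlated above 0.1 in 15 of 36 pairs with the same number (-0.45 to 0.78). Such correlations cannot show whether the numbers pair the mice. The compared groups alone give no separate fit for the interaction, and the skeletal muscle libraries could not be left out of flow cell differences that involve ZT0-EX. Depth limits Il6, which had 3 or fewer counts in 19 of 24 libraries, and less so Lif, which had 3 or fewer in 3.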
